A study of Mus musculus with 48 samples.

Results

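The first effects of PPARγ siRNA were read on day −2, before any hormone was given, by comparing 3 arrays of 3T3-L1 cells under PPARγ siRNA with 3 arrays under control siRNA, pair by pair, over all 24613 probes. These 6 arrays were chosen by their day label and are part of 48, which cover 2 siRNAs, 8 days and 3 biological replicates. 3T3-L1 is a mouse fibroblast line (ATCC CL-173) that turns into fat cells under a hormone cocktail. Both groups carried 50 nM siRNA delivered with Lipofectamine RNAiMAX, either a SMARTpool against PPARγ (the PPARγ KD) or a pool of non-targeting siRNAs (the control). Days are counted from the addition of rosiglitazone and insulin, and dexamethasone and IBMX were given to confluent cells 48 h earlier, so day −2 is the start of the cocktail at confluence. The comparison had been described as one of cells before confluence, which neither the labels nor the study's methods state. With 1 targeting pool and 1 control pool, loss of PPARγ and any other effect of the targeting pool cannot be told apart.

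PPARγ is a nuclear receptor that binds DNA together with its partner RXR and turns on the genes of the mature fat cell. Its own transcript rises as preadipocytes differentiate, and C/EBP factors, themselves induced by hormones, drive that rise. Preadipocytes are fibroblast-like cells that secrete much collagen, proteoglycan and matrix protease, and this matrix is remodelled when they become fat cells. The comparison asks which transcripts depend on the PPARγ siRNA when the receptor is still at its low level in fibroblasts.

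The day −2 arrays had median signals between 118.0 and 141.2, and between 33.7% and 39.0% of probes were above background (detection p under 0.01). Replicate 3 stood apart from replicates 1 and 2 under both siRNAs, with Pearson's r across probes from 0.940 to 0.959 against the other replicates, compared with 0.991 between its own pair. All differences below are therefore within pairs, on the log2 scale of background-corrected and scaled intensity, PPARγ KD minus control. Of 13 marker genes of preadipocytes and fibroblasts read by 17 probes, 15 probes were above background on all 6 arrays, while 9 of 10 probes for mature adipocytes were above background on none, Fabp4 and Adipoq among them. Of the probes for endothelial (5), skeletal muscle (6), epithelial (6) and brown fat cells (5), none was above background. Of 13 macrophage probes, 2 were above background (Cd14 and Lyz2, 1 probe each), with Ptprc, Adgre1 and Csf1r at background, and 2 of 11 probes for bone and cartilage were (Sox9 and 1 probe for Acan). The summed signal of the fibroblast list ran from 143447 to 154933 in the control and from 126472 to 150867 in the PPARγ KD. RNA was taken from whole cultures, so fewer cells of a type and less RNA per cell cannot be told apart.

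Genes that answer to dexamethasone and cAMP were used to place these arrays relative to the cocktail. In the control, 13 of 26 probes of such genes were called higher on day 0 than on day −2 and 0 lower, where 4.01% of all probes were called higher and 5.04% lower. Fkbp5, a glucocorticoid-induced chaperone, was higher on day 0 by 3.51, Tsc22d3, which encodes the glucocorticoid-induced leucine zipper, by 3.33, and Cebpd, an early adipogenic transcription factor, by 1.32. Between the siRNAs on day −2, none of these 26 probes was called by limma at a Bonferroni or a Benjamini-Hochberg adjusted p of at most 0.05 (4 lower and 1 higher at an unadjusted p under 0.05), and their median difference was −0.01. Of all 24613 probes, 3210 had an unadjusted p under 0.05 in this test, both directions together.

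On day −2 most of the transcripts called were lower in the PPARγ KD. With the Bonferroni adjusted p held to 0.05 or less (limma, over all probes), 212 probes were called, or 0.861% of all. By Benjamini-Hochberg 1053 were (4.28%), more evenly split into 616 lower and 437 higher. Of the 212, 166 probes of 153 genes were lower, or 0.674% of all probes, and 46 probes of 46 genes were higher, or 0.187%. All 212 moved the same way in 3 of 3 pairs. The groups did not overlap for 195 of the 212, compared with 8.66% of all probes. The median difference was −0.78 among the probes called lower and 0.71 among those called higher, against 0.01 over all probes. Changes over 2-fold were found for 47 probes called lower and 13 called higher. Of the probes called lower, 20 were above background on no PPARγ KD array, and of those called higher, 6 were above background on no control array. Without the replicate number as a block, 75 probes were called lower and 18 higher. Without replicate 1, 2 or 3, 39, 55 and 132 probes were called lower and 9, 7 and 40 higher.

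**Figure D1:**
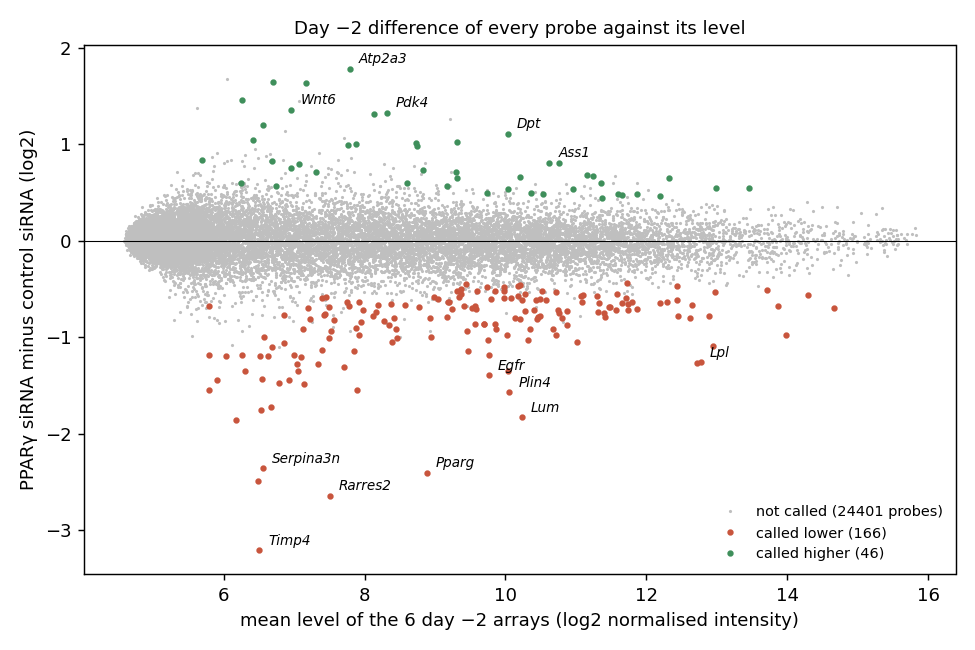
Difference of each probe on day −2 (PPARγ KD minus control, log2) against its mean level over the 6 arrays (log2 normalised intensity). Grey points were not called, red points are the 166 probes called lower and green points the 46 called higher; the probes called lower reach −3.21 (Timp4) and those called higher 1.79 (Atp2a3).

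Pparg itself, the target of the siRNA, was read by 3 probes. On the brightest of them the 3 control arrays read 10.06, 10.001 and 10.20 and the PPARγ KD arrays 7.71, 7.58 and 7.75. The groups lay far apart, the difference being −2.41 (SE 0.11, adjusted p = 5.37e-18), which left 18.8% of the control signal. On a dimmer probe the control arrays read 7.46, 7.21 and 6.65, and the PPARγ KD arrays, all not well above background, 5.18, 5.23 and 5.32, so the control was at least 1.53-fold higher (adjusted p = 6.74e-08). The third probe was above background on none of the 6 arrays. It rose in the control from 4.76 on day −2 to 7.84 on day 5, where the KD read 4.98. The first probe rose in the control from 10.09 on day −2 to 12.15 on day 5. On that probe the difference lay between −1.93 and −2.63 on days 0 to 6, and its difference on day −2 did not pass the test against their mean (difference −0.08, adjusted p = 1.00).

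The gene with the largest fall was Timp4, which encodes a tissue inhibitor of matrix metalloproteases. Its control arrays read 8.09, 8.27 and 7.97 and its PPARγ KD arrays, none well above background, 4.83, 4.68 and 5.19. The control was at least 3.08-fold higher (adjusted p = 8.43e-14). In the RefSeq gene order Timp4 and Pparg are neighbouring protein-coding genes on chromosome 6.

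Next were secreted and fat-cell proteins. Rarres2, which encodes the adipokine chemerin, read 9.18, 9.10 and 8.21 in the control and 6.00, 6.46 and 6.09 in the PPARγ KD. The difference was −2.65 (SE 0.22, adjusted p = 7.40e-10), with 1 of 3 KD arrays above background. A second Rarres2 probe, above background on all 6 arrays, did not show this fall. Its means were 8.01 in the control and 7.98 in the KD (difference −0.03, adjusted p = 1.00), so the probes disagree. The carboxylesterase named CES3 on the array read 7.81, 7.58 and 7.79 in the control and 5.06, 4.98 and 5.66 in the KD, where it was not well above background, so the control was at least 2.37-fold higher (adjusted p = 4.73e-13). Serpina3n, a serine protease inhibitor, was at least 2.38-fold higher in the control (adjusted p = 1.22e-10). On the probes called, none of these genes overlapped between the siRNAs.

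Plin4, which encodes a lipid droplet coat protein, read 10.95, 10.89 and 10.67 in the control and 9.40, 9.26 and 9.14 in the PPARγ KD. Its difference of −1.57 (SE 0.08) had an SD of 0.05 over the 3 pairs (adjusted p = 5.76e-16). Lpl, the lipoprotein lipase, fell from 13.55, 13.32 and 13.34 to 12.10, 12.09 and 12.24 (difference −1.26, adjusted p = 2.07e-10), with a gap between the groups wider than the spread within them. These were the only probes called among 23 of the mature adipocyte list, of which 17 were above background on none of the 6 arrays. The median of the list was −0.02.

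Ppargc1a, which encodes the coactivator PGC-1α, was the called member of 18 probes for nuclear receptor coregulators. It read 7.77, 7.76 and 8.13 in the control and 6.31, 5.96 and 6.92 in the PPARγ KD (difference −1.49, SE 0.16, adjusted p = 8.84e-07), and 2 of 3 KD arrays were above background. Without the replicate block this call was lost (adjusted p = 1.00). Of 45 probes for fatty acid and triglyceride metabolism, 1 was called lower and 1 higher. Angptl4, a secreted inhibitor of lipoprotein lipase, fell by 1.19 (adjusted p = 5.75e-08), while Pdk4, the kinase that shuts pyruvate dehydrogenase, rose by 1.33. Of 39 probes for adipogenic transcription factors other than Pparg, 0 were called by Bonferroni (limma, 8 lower and 4 higher at an unadjusted p under 0.05, as were 3210 of all 24613 probes in either direction). At a Benjamini-Hochberg adjusted p of at most 0.05, by which 2.5% of all probes were called lower and 1.78% higher, Ebf1 (−0.50), Id2 (−0.63) and Stat5a (−0.43) were lower and 2 of the 3 probes for Klf4 (0.90 and 0.72) were higher. Cebpb and Cebpd, which the cocktail induces, differed by −0.02 and by 0.01 on their brightest probes (adjusted p = 1.00 for both).

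The remaining large falls were in single genes of other kinds. Pde1b, a cyclic nucleotide phosphodiesterase, differed by −1.55, the calcium-binding S100a8 was at least 1.71-fold higher in the control, and the alcohol dehydrogenase Adh1 at least 1.41-fold, a call that was lost without the block. Egfr, the receptor for epidermal growth factor, read 10.53, 10.49 and 10.35 in the control and 9.01, 9.02 and 9.16 in the PPARγ KD. The difference was −1.39 (SE 0.12, adjusted p = 5.95e-10). A second Egfr probe was above background on 1 control array and on no KD array.

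**Figure D2:**
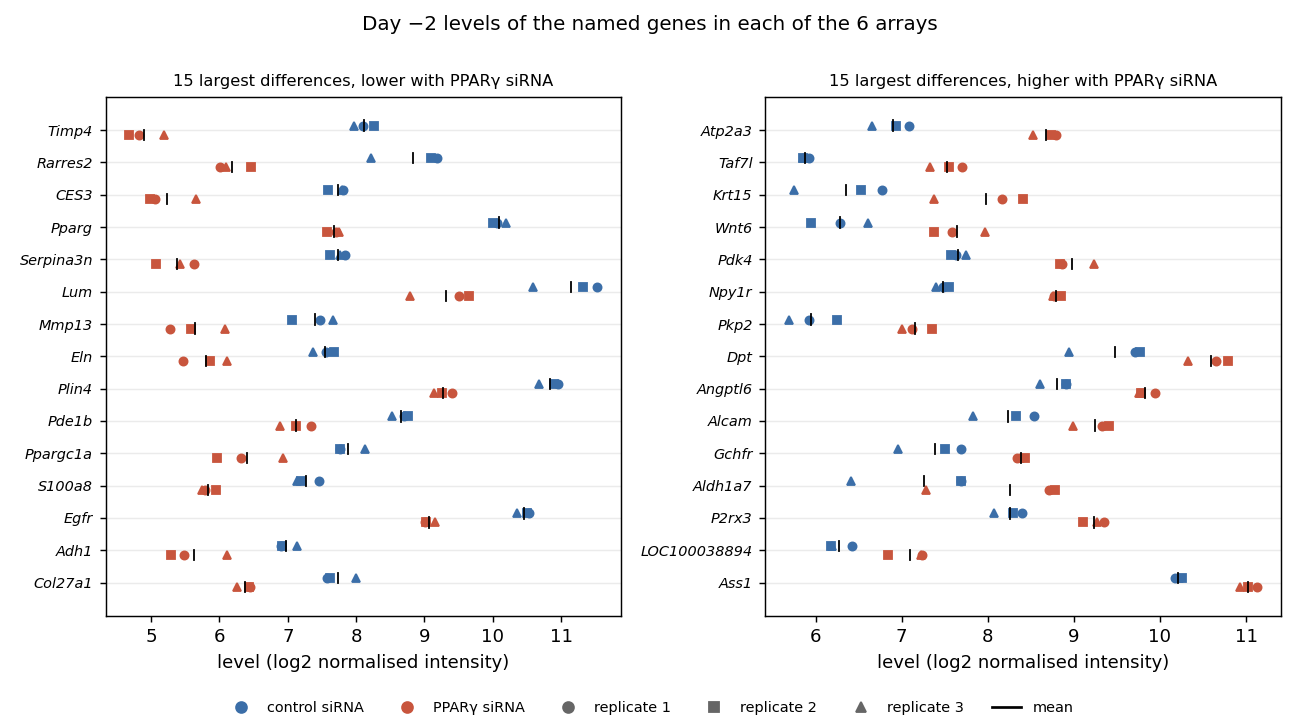
Levels (log2 normalised intensity) of the 15 genes with the largest fall and the 15 with the largest rise on day −2, each by its brightest called probe. Each symbol is 1 array, its shape the replicate and its colour the siRNA, and bars are means of 3. The 2 siRNAs overlap for Aldh1a7 alone, where replicate 3 lies lower under both.

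Many extracellular matrix genes were lower in the PPARγ KD. Of 50 probes for 30 matrix genes, 9 were called lower and 1 higher by Bonferroni, which is 18.0% lower against 0.674% of all probes, and 23 were lower and 1 higher by Benjamini-Hochberg, or 46.0% lower against 2.5%. In all, 41 of the 50 probes lay below 0, and the median difference was −0.29, with −0.36, −0.23 and −0.31 in the 3 pairs. The list was chosen with earlier results of these data known.

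Lum, which encodes the small proteoglycan lumican, fell most among the members called. Its control arrays read 11.53, 11.33 and 10.58 and its PPARγ KD arrays 9.50, 9.65 and 8.79, a difference of −1.83 (SE 0.13, adjusted p = 9.39e-12). Replicate 3 was lowest under both siRNAs, and the call was lost without the replicate block (adjusted p = 1.00). Eln, which encodes elastin, read 7.56, 7.68 and 7.37 in the control and, not well above background, 5.46, 5.86 and 6.10 in the KD, so that the control was at least 2.07-fold higher (adjusted p = 2.02e-06). Of the other cell types, the macrophage marker Lyz2 also differed on its detected probe, by −0.54 (Benjamini-Hochberg adjusted p = 0.0262), and its part in the matrix result was not tested.

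Dcn, the gene of the collagen-binding proteoglycan decorin, was called lower on all 4 of its probes, by −1.35, −1.09, −0.98 and −0.70. On the brightest, the control read 14.96, 14.85 and 15.23 and the PPARγ KD 14.18, 14.46 and 14.31. Every KD array lay below every control array. Lum and Dcn are neighbouring genes on chromosome 10. Tenascin C (Tnc) was called lower on 1 of its probes (−0.98), the gelatinase Mmp2 by −0.57 and the stromelysin Mmp3 by −0.80 on 1 of 2 probes.

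The fibrillar collagens moved less. Col1a1 (−0.47), Col1a2 (−0.44), Col5a1 (−0.29), the brightest probe for Col6a1 (−0.29) and Sparc (−0.46) were lower by Benjamini-Hochberg only. Both probes for Col3a1 and all 4 for Fn1 did not pass, with differences between −0.27 and 0.28. Dpt, which encodes dermatopontin, a matrix protein that binds decorin, went the other way. It read 9.71, 9.77 and 8.94 in the control and 10.65, 10.79 and 10.33 in the KD (difference 1.11, SE 0.14, adjusted p = 1.96e-05). Outside the list, the collagenase Mmp13 was at least 1.88-fold higher in the control and Col27a1, a fibrillar collagen, differed by −1.35. Both belong to the 15 largest falls.

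**Figure D3:**
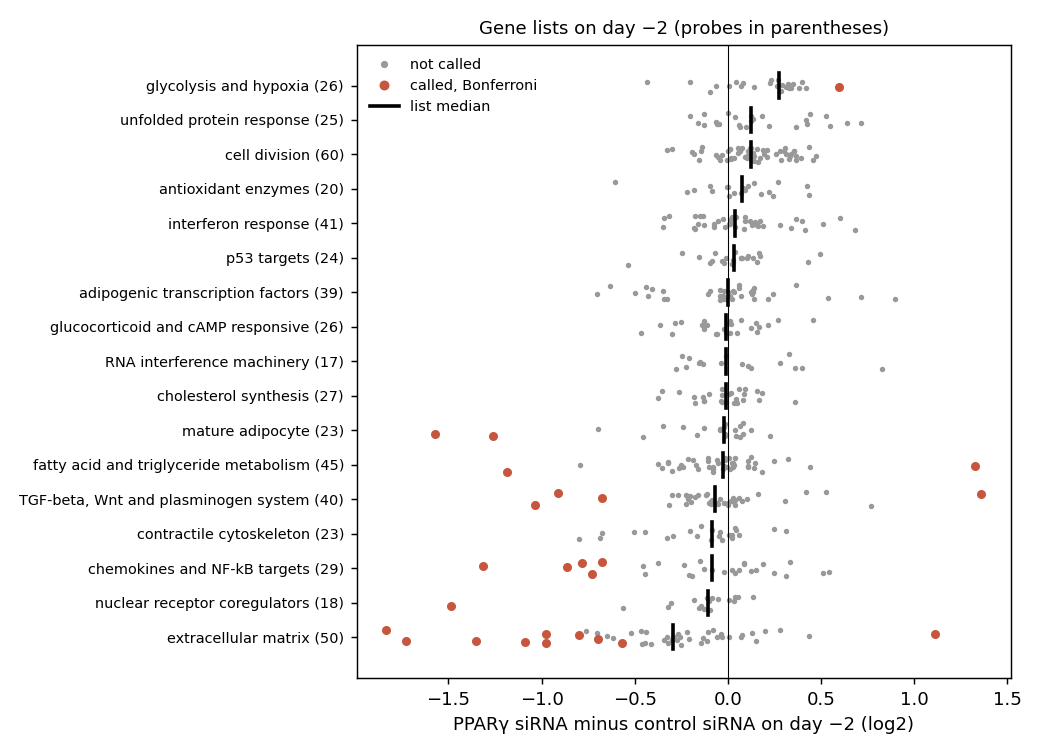
Day −2 difference (PPARγ KD minus control, log2) of each probe of 17 gene lists. Red points were called by Bonferroni, grey points were not and bars are list medians; the extracellular matrix list has the lowest median, −0.29, and holds 10 of the red points.

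Growth and stress genes gave few calls by Bonferroni, and in some lists more by Benjamini-Hochberg. For the counts at an unadjusted p under 0.05 in this paragraph, the number over all 24613 probes was 3210, both directions together (limma). Of 60 probes for cell division, 0 were called by Bonferroni (2 lower and 18 higher at an unadjusted p under 0.05), with a median of 0.12. By Benjamini-Hochberg 1 was lower (1 of 4 Ccnd1 probes, −0.32). The 4 higher, 6.67% against 1.78% of all probes, were 2 of 3 Cdc20 probes, Mcm2 and 1 of 2 Plk1 probes, from 0.36 to 0.47. Of 26 probes for glycolysis and hypoxia, Pfkl, the liver phosphofructokinase, rose by 0.60 (adjusted p = 0.00104) and 8 were higher by Benjamini-Hochberg, or 30.8% against 1.78%. Besides Pfkl these were Aldoa, Gapdh, Gpi1, Pkm, Ddit4 and both Tpi1 probes, from 0.31 to 0.42, while Adm was lower (−0.43). The list median was 0.28. Of 25 probes for the unfolded protein response, 5 were higher by Benjamini-Hochberg, or 20.0% against 1.78%, with a median of 0.12. These were 2 of 3 Trib3 probes, Ddit3, 1 of 2 Asns probes and Atf3, the last not above background on any array. For p53 targets (24 probes), antioxidant enzymes (20), cholesterol synthesis (27), interferon response (41), contractile cytoskeleton (23) and the RNA interference machinery (17), none was called by Bonferroni. By Benjamini-Hochberg, in this order, 1, 1, 1, 0, 4 and 0 were called lower and 1, 1, 0, 3, 0 and 2 higher, and at an unadjusted p under 0.05 (limma) 2, 3, 3, 1, 6 and 4 were lower and 2, 4, 1, 6, 1 and 5 higher. Their medians lay between −0.09 and 0.08. The interferon list did not hold H2-D1, Wars or Oas1g, which were each called higher by Bonferroni on 1 probe (0.68, 0.67 and 0.84). The Oas1g probe was at background on every array. These genes were picked after their values were seen, and other genes outside the list were not searched.

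Signalling genes were called in both directions. Of 29 probes for chemokines and NF-κB targets, 5 were called lower (17.2%, against 0.674% of all probes) and 0 higher: Hp, the haptoglobin gene (−1.31), Cx3cl1 (−0.86), 2 of 3 probes for Cxcl12 (−0.78 and −0.68) and complement C3 (−0.73). Of 40 probes for the TGF-β, Wnt and plasminogen systems, 3 were called lower (7.5%, against 0.674% of all probes) and 1 higher (0.187% of all were). Tgfb2, the gene of a TGF-β ligand, read 10.40, 10.31 and 10.09 in the control and 9.28, 9.32 and 9.10 in the KD (difference −1.03, adjusted p = 7.70e-09). Sfrp2, a secreted Wnt antagonist, differed by −0.91 and Lef1, a transcription factor of the Wnt pathway, by −0.67, both with overlapping groups. For Sfrp2 replicate 3 was lowest under both siRNAs, and Lef1 was above background on 1 array.

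Wnt6, which encodes a Wnt ligand, went up. Its control arrays read 6.29, 5.94 and 6.61, of which 1 was above background, and its PPARγ KD arrays 7.59, 7.38 and 7.97. The rise of 1.36 (SE 0.10, adjusted p = 2.30e-11) had an SD of 0.07 over the pairs.

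The largest rise was that of Atp2a3, which encodes a calcium pump of the endoplasmic reticulum. It read 7.08, 6.94 and 6.66 in the control and 8.79, 8.73 and 8.52 in the PPARγ KD. The difference was 1.79 (SE 0.22, adjusted p = 2.90e-05). Pdk4 read 7.63, 7.58 and 7.75 in the control and 8.87, 8.84 and 9.24 in the KD (SE 0.13, adjusted p = 2.19e-08). In both genes every KD array lay above every control array.

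Taf7l, a subunit of the general transcription factor TFIID, was at least 2.18-fold higher in the KD, and Pkp2, a desmosomal plakophilin, at least 1.69-fold, both being not well above background in the control. Krt15, a keratin, rose by 1.63, Npy1r, a receptor for neuropeptide Y, by 1.31, Angptl6 by 1.02, the adhesion molecule Alcam by 1.01, Gchfr, the regulator of GTP cyclohydrolase, by 1.00, the ATP-gated channel P2rx3 by 0.98 and Ass1, argininosuccinate synthase, by 0.81. The transcript LOC100038894 rose by 0.83. Aldh1a7, an aldehyde dehydrogenase, rose by 1.00 with overlapping groups. Without the block, the calls of Krt15, Npy1r, Pkp2, Dpt, Alcam, Aldh1a7 and LOC100038894 were lost.

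Other called genes were picked one by one after their values were seen, so they say nothing of a group. They included the prolyl isomerases Fkbp11 (−1.02), Fkbp7 (−0.80) and Fkbp14 (−0.64), both probes for the retrieval receptor Kdelr3 (−0.66 and −0.58), Rcn3 (−0.65), Gpx7 (−0.61) and Tmed3 (−0.52). Gas6, the ligand of the TAM receptors, read 13.24, 13.24 and 13.59 in the control and 11.94, 12.04 and 12.27 in the KD, a fall of 1.27 (adjusted p = 6.56e-12). Both probes for Hsd11b1, the enzyme that regenerates active glucocorticoid, were lower (−0.91 on one and, against a KD not well above background, at least 2.05-fold on the other). Agt, the angiotensinogen gene, was at least 1.68-fold higher in the control. Also lower were the bacterial sensors Tlr4 (−0.83, on 1 of 3 probes) and Nod1 (−0.84), and the transcription factors Snai2 (−0.79) and Hey1 (−0.94).

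The homeobox genes were also looked at after their values were seen. Of 9 probes for Hoxd genes, 3 were called lower, where 0.674% of all probes were. Those 3 were also the Hoxd probes above background on all control arrays, and a probe at background there can hardly be called lower. Hoxd8 read 11.11, 10.92 and 10.39 in the control and 10.06, 10.07 and 9.56 in the PPARγ KD (difference −0.91, adjusted p = 2.03e-08). Hoxd9 differed by −0.67, Hoxd3, at background on all 6 arrays, by −0.71 (lower by Benjamini-Hochberg only) and Hoxd4 by −0.97, the latter with overlapping groups. Of 17 probes for Hoxa, 11 for Hoxb and 9 for Hoxc genes, none was called by Bonferroni, and Hoxa5 (−0.40), Hoxc9 (−0.90) and Hoxc13 (−0.50) were lower by Benjamini-Hochberg. Hoxd8 and Hoxd9 are neighbours on chromosome 2. In all, 4 neighbouring pairs were called among the 182 called genes placed in RefSeq, all lower (Dcn and Lum, Hoxd9 and Hoxd8, Tnc and Pappa, Timp4 and Pparg). The number of pairs to expect among as many genes was not computed, so clustering was not tested.

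The upstream sequences of 4 of these genes are shown as examples, since PPARγ with RXR is known to bind direct repeats of AGGTCA. The 4 were picked by hand and do not represent the called genes. Pparg and Hoxd9, the neighbours of Timp4 and Hoxd8, are not shown. Each sequence is the 250 bases before the RefSeq start in GRCm38.p6, written 5′ to 3′ on the gene's strand, with AGGTCA or its reverse complement in capitals. Plin4 lies on the minus strand at chr17:56109783-56110032, Timp4 on the minus strand at chr6:115252206-115252455, Hoxd8 on the plus strand at chr2:74704365-74704614 and Hoxd4 on the plus strand at chr2:74721728-74721977.
Plin4: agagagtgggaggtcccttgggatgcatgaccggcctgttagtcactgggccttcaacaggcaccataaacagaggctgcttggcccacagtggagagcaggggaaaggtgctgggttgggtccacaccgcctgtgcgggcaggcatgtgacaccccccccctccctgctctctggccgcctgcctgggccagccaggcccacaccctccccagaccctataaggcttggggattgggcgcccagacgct
Timp4: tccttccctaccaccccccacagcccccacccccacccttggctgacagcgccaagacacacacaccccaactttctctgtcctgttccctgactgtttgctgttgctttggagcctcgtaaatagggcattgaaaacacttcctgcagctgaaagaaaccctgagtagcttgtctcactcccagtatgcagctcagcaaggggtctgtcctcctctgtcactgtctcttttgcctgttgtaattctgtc
Hoxd8: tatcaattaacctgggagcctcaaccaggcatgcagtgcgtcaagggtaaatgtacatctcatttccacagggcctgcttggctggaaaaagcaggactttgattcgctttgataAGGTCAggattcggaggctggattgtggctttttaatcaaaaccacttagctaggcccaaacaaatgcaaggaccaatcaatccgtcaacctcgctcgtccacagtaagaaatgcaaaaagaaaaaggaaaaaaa
Hoxd4: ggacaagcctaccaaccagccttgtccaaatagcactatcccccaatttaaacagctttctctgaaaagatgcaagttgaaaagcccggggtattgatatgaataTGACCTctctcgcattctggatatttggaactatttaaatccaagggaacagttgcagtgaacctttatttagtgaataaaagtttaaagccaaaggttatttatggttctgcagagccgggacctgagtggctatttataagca

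The windows of Hoxd8 and Hoxd4 hold 1 copy of this hexamer each, and those of Plin4 and Timp4 hold none. These hand-picked examples do not give its frequency among the called genes, which is counted next. Promoter windows were given for 104 of the genes called lower and 32 of those called higher. In these 250 bases AGGTCA, searched on both strands, was found for 11 of 104 lower genes (10.6%) and 4 of 32 higher genes (12.5%), compared with 15.8% of all 27025 genes. Direct repeats of the hexamer with a single base between, the arrangement known for PPARγ with RXR, were found for 0 of either group and for 0.0407% of all genes.

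The study lists genes with a PPARγ or RXR binding site near their start that are also regulated over these arrays, so this list is not independent evidence, and the binding was read in differentiated cells. Of 104 probes for 72 listed genes with a site for both PPARγ and RXR, 7 were called lower on day −2 and 0 higher (6.73% lower against 0.674% of all probes). They were 2 of the 3 Pparg probes, both Hsd11b1 probes, Angptl4, Agt and Fgfrl1, a receptor-like protein for fibroblast growth factors (−0.62). Of 267 probes for 190 genes with a site listed for only 1 of the factors, 8 were called lower (3.00%) and 1 higher (Ets2, 0.54). When tested by PCR, nearly all such sites were bound by both factors. The study proposes that the partner was missed because sequencing was incomplete. Plin4, Lpl, Hp, S100a8, C3 and Golga2 were among the lower. Golga2 was called on 1 of 3 probes, and its brightest probe differed by −0.14 (adjusted p = 1.00).

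The differences of the day −2 genes were followed on the 42 arrays of days 0 to 6. These probes were chosen by their day −2 values, so some shrinkage of their differences on other days is built in. Of the 166 probes called lower, 77 were again called lower on day 0 (46.4%, where 1.37% of all probes were) and 0 higher (1.67% of all). On day 2, 28 were lower (16.9%, against 4.18% of all) and 30 higher (18.1%, against 4.74%), and the median difference of the 166 was 0.22, where that of all probes was −0.12. Between them, on days 3, 4 and 5, 32, 27 and 25 were lower, where 2.29%, 2.13% and 2.68% of all probes were, and on day 5, 7 were higher, where 0.565% of all were. On day 6, 26 were lower (15.7%, against 3.09%) and 14 higher (8.43%, against 0.796%). Of the 46 probes called higher, 22 were again higher on day 0 (47.8%, against 1.67%). On day 2, 20 were higher (43.5%, against 4.74%) and 6 lower (13.0%, against 4.18%). By day 6, 4 were higher (8.70%, against 0.796%) and 9 lower (19.6%, against 3.09%).

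**Figure D4:**
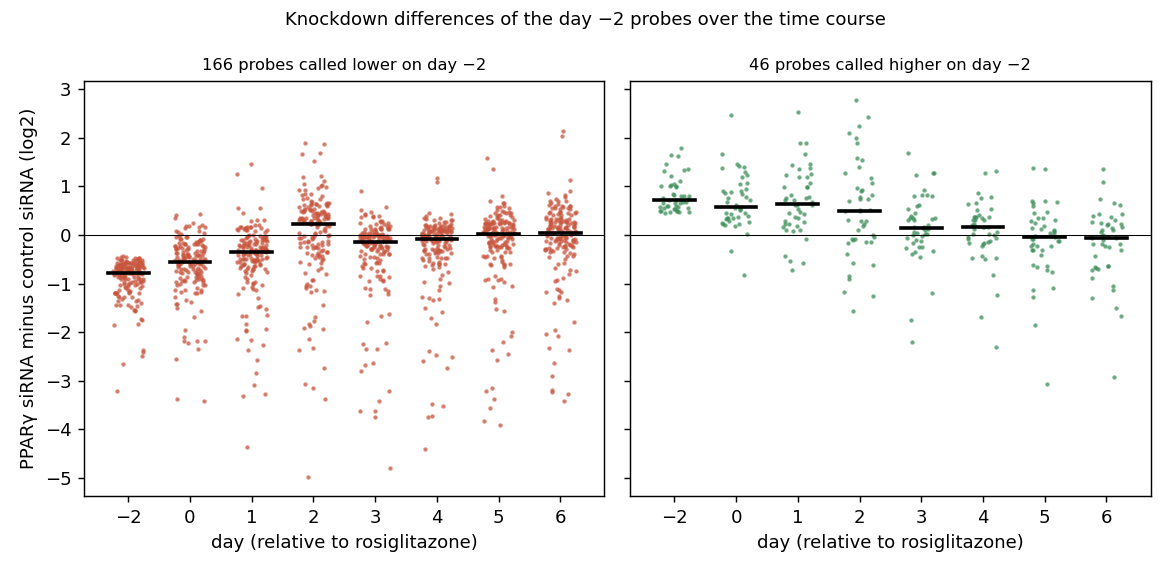
Differences (PPARγ KD minus control, log2) of the 166 probes called lower and the 46 called higher on day −2, on each day relative to rosiglitazone. Points are probes and bars are medians. The median of the lower set moves from −0.78 on day −2 to −0.55 on day 0 and 0.22 on day 2. The probes were chosen by their day −2 values, which makes the day −2 medians larger in size.

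A set of 15 probes of 13 genes was called in the same direction on all 8 days. The lower ones were CES3, Serpina3n, Plin4, Lpl, Angptl4, Agt, N4bp2l1, both Hsd11b1 probes, 2 of the 3 Pparg probes and 1 of the 2 Rarres2 probes, and the higher ones Wnt6, Dpt and Dtna. On its called probe Rarres2 differed by −2.65 on day −2 and by −2.73 to −4.36 on days 0 to 6, while its other probe differed by −0.03 and on average by 0.47. Wnt6 differed by 1.36 on day −2 and by 1.08 to 2.43 later.

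The matrix genes behaved otherwise. Of the 50 matrix probes, 9 were called lower and 1 higher on day −2 (0.674% and 0.187% of all probes). Day 0 had 5 lower and 4 higher (1.37% and 1.67% of all probes), and day 1 had 2 lower and 8 higher (1.49% and 1.42%). By day 2 the calls were 2 lower and 19 higher, where 4.18% and 4.74% of all probes were. The list median was 0.39 on that day, against −0.12 over all probes. From day 3 on, none was called lower, where 2.13% to 3.09% of all probes were. On these days 3 to 7 were called higher, where at most 0.796% of all probes were. In the control the brightest Dcn probe fell from 15.01 on day −2 to 13.70 on day 2, while in the PPARγ KD it read 14.32 and 14.54. The Dcn difference on that probe turned from −0.70 on day −2 to 0.84 on day 2 (adjusted p = 5.45e-07). For Lum the differences were −1.83, −0.96 and 0.38 on days −2, 0 and 2.

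The effect on day −2 was tested directly against the mean effect of days 0 to 6 in the same limma fit, the arrays being different on both sides. Over all probes, 782 were called (3.18%). For 322 of them the effect was lower on day −2 than later (1.31%) and for 460 it was higher (1.87%). Of the 166 probes called lower on day −2, 93 passed this test, and of the 46 called higher, 17. These probes were chosen by their day −2 values, which also enter the test, so an excess of passes is built in. The counts run both ways. They include probes whose fall was larger later, such as CES3 (−2.49 on day −2 and −3.69 on average later) and both Hsd11b1 probes. The 8 genes furthest below their later effect were Mmp3 (−0.80 on day −2 and 1.32 on average later), Gfra1 (−0.998 and 0.71), a receptor for GDNF, the prokineticin receptor Prokr1 (−0.31 and 1.37), Serpina3g (−1.14 and 0.54), Col23a1 (−1.28 and 0.29), Sfrp2 (−0.91 and 0.65), Clec3b, which encodes tetranectin (−1.20 and 0.27), and Timp4 (−3.21 and −1.76). Gas6 passed too, with −1.27 on day −2 and 0.00 later (adjusted p = 4.63e-11). Egfr passed with −1.39 and −0.18 (adjusted p = 1.91e-07).

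On the other side stood genes of lipid storage and release that were above background on all control arrays of day −2 but differed much less between the siRNAs there than later. G0s2, an inhibitor of fat breakdown, differed by −0.02 on day −2 and by −3.68 on average later, Gpd1, which makes glycerol phosphate, by −0.46 and −4.10, Acsl1, which activates fatty acids, by −0.24 and −3.71, the triglyceride lipase Pnpla2 by 0.22 and −2.82, and Dgat2, which makes triglyceride, by −0.16 and −2.90. None of these was called on day −2, though Gpd1 was lower in all 3 pairs without overlap of the groups (limma, Benjamini-Hochberg adjusted p = 0.0515). The other 3 were Aldh1a7 (1.00 and −1.41), Arxes2 (−0.26 and −2.58) and the calcium-binding S100a1 (0.24 and −1.99). Of the 23 mature adipocyte probes, 2 were called lower on day −2, 8 on day 0 and 16 by day 2, where 0.674%, 1.37% and 4.18% of all probes were.

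**Figure D5:**
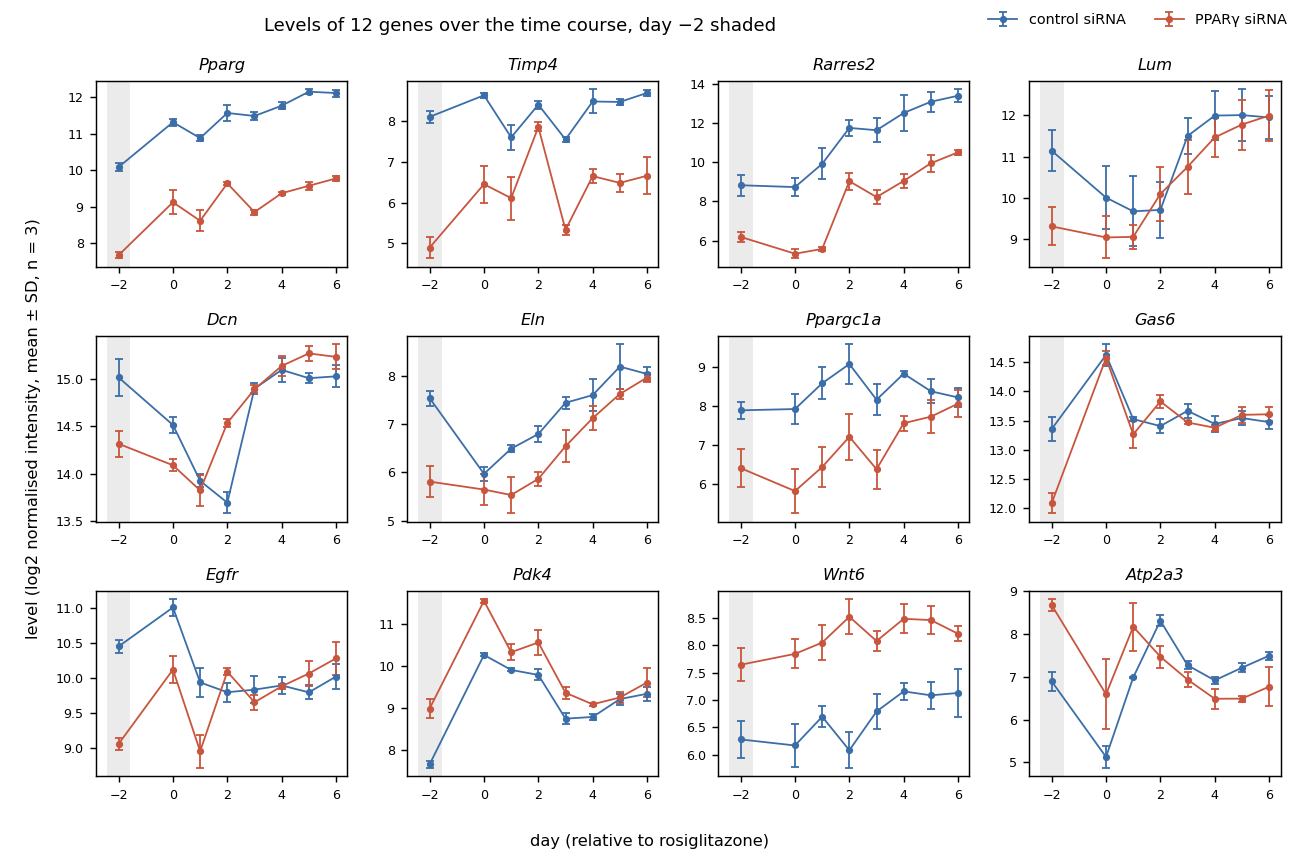
Levels of 12 genes (log2 normalised intensity, mean ± SD, n = 3) under control (blue) and PPARγ siRNA (red) from day −2, shaded, to day 6. Pparg, Wnt6 and the called probe for Rarres2 stay apart on every day, Gas6 and Egfr are apart on day −2 and close from day 3 on, and the brightest Dcn probe crosses between day 1 and day 2.

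Against day 0 alone, after 48 h of dexamethasone and IBMX, the difference in effect was called for 163 probes (0.662% of all), 22 of them among the 212 called on day −2. The 212 were chosen by their day −2 values, which also enter this test. Gas6 rose in the control from 13.35 to 14.63 and in the PPARγ KD from 12.08 to 14.57, so that its difference went from −1.27 to −0.05. Most of the day −2 calls were therefore not separated from day 0 by this test, which does not show that their effects were equal.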

How the data were processed

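RNA from 48 cultures, of which the 6 of day −2 are compared here, was hybridised to Illumina mouse arrays, 1 array a culture. The authors deposited bead summary intensity per probe, exported from BeadStudio 3.3.7 without normalization, and a detection fraction (1 minus the detection p). Starting from these, normexp background correction (limma 3.58.1, R 4.3.3, offset 16) was applied, arrays were scaled on rank-invariant probes between the 50th and the 90th percentile, and log2 values were taken. A linear model holding 1 mean per siRNA and day, blocked on replicate number, was fitted to all 48 arrays with 30 residual degrees of freedom, and differences were tested with limma's moderated statistic. Calls required a Bonferroni adjusted p not above 0.05 over 24613 probes, and Benjamini-Hochberg calls are named as such. Unless named otherwise, an adjusted p is Bonferroni's. Deviations of same-numbered samples from their group means correlated with r from 0.544 to 0.914 in all 24 pairs, which met the criterion set for pairing (every pair over 0.1). On day −2 these deviations set replicate 3 apart from replicates 1 and 2 and did not tell 1 from 2, since control 1 correlated with KD 2 (r = 0.854) at least as well as with KD 1 (r = 0.776).

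The genes named are the 15 with the largest fall and rise among probes called, moving one way in 3 pairs and above background on all arrays of at least 1 siRNA, each by its brightest such probe, the 8 furthest from their later effect in each direction, and members of gene lists. The members and lists were chosen with earlier results of these data known. Where a probe was not well above background on every array of a siRNA, "at least N-fold" sets the brighter mean against the mean, over the dim arrays, of the higher of the dim probe's own signal and the lowest signal among probes above background. Symbols were updated through RefSeq, with 18343 probes matched by symbol, 4361 by synonym and 1909 unmatched. The fitting steps were tested on simulated data. With 3 arrays a group, their number limits the precision. Other normalizations, offsets, a filter on dim probes, other blocks and the removal of each replicate were tried.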

Additional observations from a re-analysis of the deposited data

Results flagged for a closer look

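For 782 probes the effect on day −2 differed from the mean effect of days 0 to 6 (limma, Bonferroni adjusted p of at most 0.05), and the differences below are day −2 minus later, on the log2 scale. For some transcripts of matrix and secreted proteins, the effect of the siRNA, not the level, was more negative on day −2 than later. They were Mmp3 (−2.11), Serpina3g (−1.68), Col23a1 (−1.58), Sfrp2 (−1.56), Clec3b (−1.47), Timp4 (−1.45), Lum (−1.45), Mmp13 (−1.30) and Col27a1 (−1.09). The receptors Gfra1 (−1.71), Prokr1 (−1.68) and Egfr (−1.22) stood on the same side.

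Genes of fat storage and breakdown stood on the other side, with more negative effects later: G0s2 by 3.66, Gpd1 by 3.65, Acsl1 by 3.47, Pnpla2 by 3.04, Dgat2 by 2.73 and Plin4 by 0.53. Arxes2 differed by 2.32, S100a1 by 2.22 and CES3 by 1.19. Genes that rose on day −2 and had a smaller or negative mean effect later were Aldh1a7 (2.41), Atp2a3 (1.84), Gchfr (1.19), Angptl6 (0.95) and Pdk4 (0.80). On day 0 all but Gchfr were again called higher. Aldh1a7 was called lower on days 3 to 6, Gchfr on days 4 to 6 and Angptl6 on day 6.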

How the results depend on the processing

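All 212 probes kept their direction under the settings that tested them. Without the replicate block 93 probes were called on day −2 (75 lower, 18 higher), with a replicate block by day 114 (96 and 18), with the 6 day −2 arrays alone 95 (70 and 25), and by Benjamini-Hochberg 1053 (616 and 437). Quantile normalization gave 82 probes called higher and leaving out dim probes 76, with 68.3% and 73.4% of calls lower, against 78.3%. Leaving out replicates gave 48 to 172 calls, 39 to 138 lower and 7 to 40 higher, Pparg staying between −2.44 and −2.37 and the matrix list median between −0.35 and −0.27. The test against days 0 to 6 called 782 probes, and 331 without the replicate block (104 lower, 227 higher), 456 with a replicate block by day (165 and 291), 2887 by Benjamini-Hochberg (1436 and 1451) and 229 to 636 without replicates (58 to 269 lower, 171 to 390 higher). Of the 29 genes named for day −2 besides Pparg, 10 lost their call when the block was dropped, and 10, 12 and 4 when replicate 1, 2 or 3 was left out, and of the 16 named against later days, Aldh1a7, Prokr1 and Sfrp2 lost theirs without the block. Why the counts move was not tested. Between 33.7% and 39.0% of probes were above background on day −2, and differences of probes at background on one side are poorly measured.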
